A study of Homo sapiens with 8 samples.

Results

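The enzymes described here carry out glycolysis, the pathway that splits glucose into pyruvate in the cytosol. They are represented by 10 genes, chosen by name as the abundant isoform of each step from glucose 6-phosphate to lactate: GPI, PFKP, ALDOA, TPI1, GAPDH, PGK1, PGAM1, ENO1, PKM and LDHA. All 10 were found by symbol among the 13036 genes of the deposited table, and all 10 passed the filter on low values that left 13028 tested genes. The sequenced RNA came from the human glioblastoma line LN229-TAZ(4SA) which carries a form of TAZ, the co-activator that the Hippo pathway holds in check. Per the series' title the study concerns inhibition of thioredoxin reductase 1 and disulfidptosis, a form of cell death tied to disulfide stress. There were 2 libraries in each of 4 groups: regular culture for 1 h, regular culture for 7 h, and glucose deprivation combined with 1 µM AF, again for 1 h or for 7 h. AF is named only by this abbreviation in the labels. The cells without glucose and with AF are called treated below. AF and the loss of glucose were always applied together, so their parts cannot be told apart, and every group carried TAZ(4SA), so no comparison bears on TAZ. The labels do not say whether the libraries of a group came from separate cultures, so a p-value here reflects the spread of the sequenced libraries alone, and that spread may be technical. Columns are headed by group with no replicate number, and the pair in each group is named library A and library B with no order implied.

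Glycolysis first converts glucose 6-phosphate to a bisphosphate at the cost of ATP, splits it into triose phosphates, and then recovers ATP and NADH on the way to pyruvate. Lactate dehydrogenase returns the NADH to NAD+ by reducing pyruvate to lactate, which lets glycolysis run without mitochondria. Tumour cells, glioblastoma included, are known for high glycolytic flux even in oxygen. Many genes of the pathway are textbook targets of the transcription factors HIF1 and MYC, and GAPDH and PGK1 are widely used as reference genes in RT-qPCR. Enzyme levels and flux were not measured in these data, which hold messenger RNA only.

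Windows at annotated starts of the genes that moved furthest in opposite directions at 7 h on the deposited scale, and of GAPDH, are shown. They share the core letters bound by HIF. Each window runs from 250 bases before to 50 bases after an annotated start in RefSeq (GRCh38.p14), is written on the gene's own strand from 5′ to 3′, and has every match to the HIF core letters ACGTG or GCGTG, on either strand, in capitals. PGK1 (phosphoglycerate kinase) has its window at chrX:78103998-78104297 on the plus strand with 4 matches, and GAPDH (glyceraldehyde 3-phosphate dehydrogenase) at chr12:6535014-6535313 on the plus strand with 2. The whole GAPDH window lies inside the span of the gene, chr12:6534517-6538371, so the 5′ end of that span is not shown. LDHA (lactate dehydrogenase A) has a pair of windows on the plus strand, at chr11:18394313-18394612 with 6 matches and at chr11:18396101-18396400 with 1.
PGK1: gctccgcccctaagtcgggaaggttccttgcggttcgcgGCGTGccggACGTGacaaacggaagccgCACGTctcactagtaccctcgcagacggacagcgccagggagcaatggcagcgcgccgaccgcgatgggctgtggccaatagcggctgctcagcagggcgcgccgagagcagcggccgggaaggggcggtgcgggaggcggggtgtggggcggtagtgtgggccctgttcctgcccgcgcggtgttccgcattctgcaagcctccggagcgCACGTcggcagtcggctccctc
GAPDH: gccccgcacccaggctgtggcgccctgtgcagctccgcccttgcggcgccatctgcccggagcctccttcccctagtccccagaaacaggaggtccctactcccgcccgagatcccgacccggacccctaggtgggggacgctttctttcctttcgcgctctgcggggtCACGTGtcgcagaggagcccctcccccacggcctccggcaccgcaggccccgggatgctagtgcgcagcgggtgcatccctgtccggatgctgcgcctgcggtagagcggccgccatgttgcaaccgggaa
LDHA upstream start: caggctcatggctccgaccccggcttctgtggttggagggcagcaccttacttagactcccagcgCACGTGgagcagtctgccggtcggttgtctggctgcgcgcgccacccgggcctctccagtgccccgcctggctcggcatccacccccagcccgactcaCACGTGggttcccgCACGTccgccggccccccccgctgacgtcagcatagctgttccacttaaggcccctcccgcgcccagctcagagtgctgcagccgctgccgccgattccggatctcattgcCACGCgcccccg
LDHA downstream start: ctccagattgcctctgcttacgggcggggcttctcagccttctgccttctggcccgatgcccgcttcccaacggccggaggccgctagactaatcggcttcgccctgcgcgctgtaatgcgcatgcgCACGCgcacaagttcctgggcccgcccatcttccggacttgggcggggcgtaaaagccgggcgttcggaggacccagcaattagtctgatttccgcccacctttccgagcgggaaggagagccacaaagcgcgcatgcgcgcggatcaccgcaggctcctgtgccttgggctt
The HIF core was present in 13 of 17 windows of the 10 genes, against 48.4% of all 35116 windows of 300 bases. It was in windows of 9 of 10 genes and not in the window searched for PGAM1. Some of these genes have several windows, so this count by gene cannot be set against the share of windows. All windows of GPI, PFKP, GAPDH, PGAM1 and PKM lay inside the span of their gene. The 5′ ends of those spans were thus not searched for any motif. The E-box CACGTG, which contains ACGTG and is also bound by MYC, was in 3 of the 17 windows, of ALDOA, GAPDH and LDHA, against 7.26% of all windows. The GC box GGGCGG was in 11 of the 17, against 44.95%. The letters TGACNNNGC, the core of the antioxidant response element, were in 2 windows, of GAPDH and PKM, against 13.3%. The letters GAANNTTC, a pair of heat shock units, were in 1 window, of PGK1, against 6.77%. Both strands were searched for each motif. PGK1 and LDHA, whose values moved in opposite directions at 7 h on the deposited scale, thus both carry HIF core letters, and these matches are a description of letters and not of binding.

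The genes lie on 8 chromosomes (RefSeq, GRCh38.p14). GPI (Entrez 2821) spans chr19:34359718-34402413, PFKP (5214) chr10:3067548-3136805, ALDOA (226) chr16:30064279-30070420, and TPI1 (7167) chr12:6867420-6870948. GAPDH (2597) spans chr12:6534517-6538371, PGK1 (5230) chrX:78104248-78129295, and PGAM1 (5223) chr10:97426191-97433444. ENO1 (2023) spans chr1:8861000-8878686 on the minus strand, PKM (5315) chr15:72199029-72231591 on the minus strand, and LDHA (3939) chr11:18394563-18408425. The 8 genes other than ENO1 and PKM lie on the plus strand.

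The libraries held between 27731776 and 45811965 reads in the listed genes. Levels are given in CPM, reads scaled for the size of each library, on the deposited scale and after removal of the small prior in the deposited log2 values. The library sizes behind these CPM were 1.04 to 1.05 times the reads of the listed genes in regular culture, 1.09 times for the treated 1 h libraries, and 0.838 and 0.846 times for those treated for 7 h. The heat shock genes and HMOX1 (heme oxygenase 1) are here 63 symbols, those that begin with HSP or DNAJ and HMOX1 itself. Together they took 1.52% to 1.64% of the listed reads in regular culture. They took 2.97% and 2.94% in the treated 1 h libraries and 11.96% and 11.93% in the treated 7 h libraries. HMOX1 rose from 11.7 ± 0.107 (SD, n = 2) to 2025 ± 62.1 CPM at 1 h and from 10.3 ± 1.18 to 21074 ± 290 CPM at 7 h. TXNRD1, the gene of thioredoxin reductase 1, stood at 351 ± 4.90 CPM in regular culture and 2473 ± 21.05 in the treated 7 h libraries. Of 7 mesenchymal glioblastoma markers 6 were listed, with VIM at 2855 ± 16.8 CPM in the regular 1 h libraries, while the astrocyte marker GFAP had group means of 0.495 to 1.14 CPM and none of 4 immune and 2 erythroid markers was listed. The summed level of 3 neuronal markers was 44.8 CPM in regular culture and 129.6 in the treated 7 h libraries, and that of 4 oligodendrocyte markers, led by SOX10, was 1068 and 388; their part in the results below was not tested.

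Per kilobase of transcript (the median length of the principal transcripts in GENCODE 29), GAPDH was the most abundant of the 10 in the regular 1 h libraries at 3758 CPM per kb, followed by PKM at 1499, ENO1 at 783, LDHA at 649, ALDOA at 631 and TPI1 at 543. PGK1 at 79.7, PFKP at 77.7, PGAM1 at 62.3 and GPI at 57.8 formed the lower end. Of the neighbours in this order, only PGK1 and PFKP had overlapping libraries. The order among the lower 4 and among LDHA, ALDOA and TPI1 changed with condition: in the treated 7 h libraries ALDOA at 943 and TPI1 at 655 CPM per kb stood above LDHA at 596, and PFKP at 138 stood beside PGK1 at 134. These per-kilobase levels rest on the annotated length, which is 4887 bases for PGK1 and 1348 for GAPDH, and are no measure of the transcript ends used here.

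**Figure D1:**
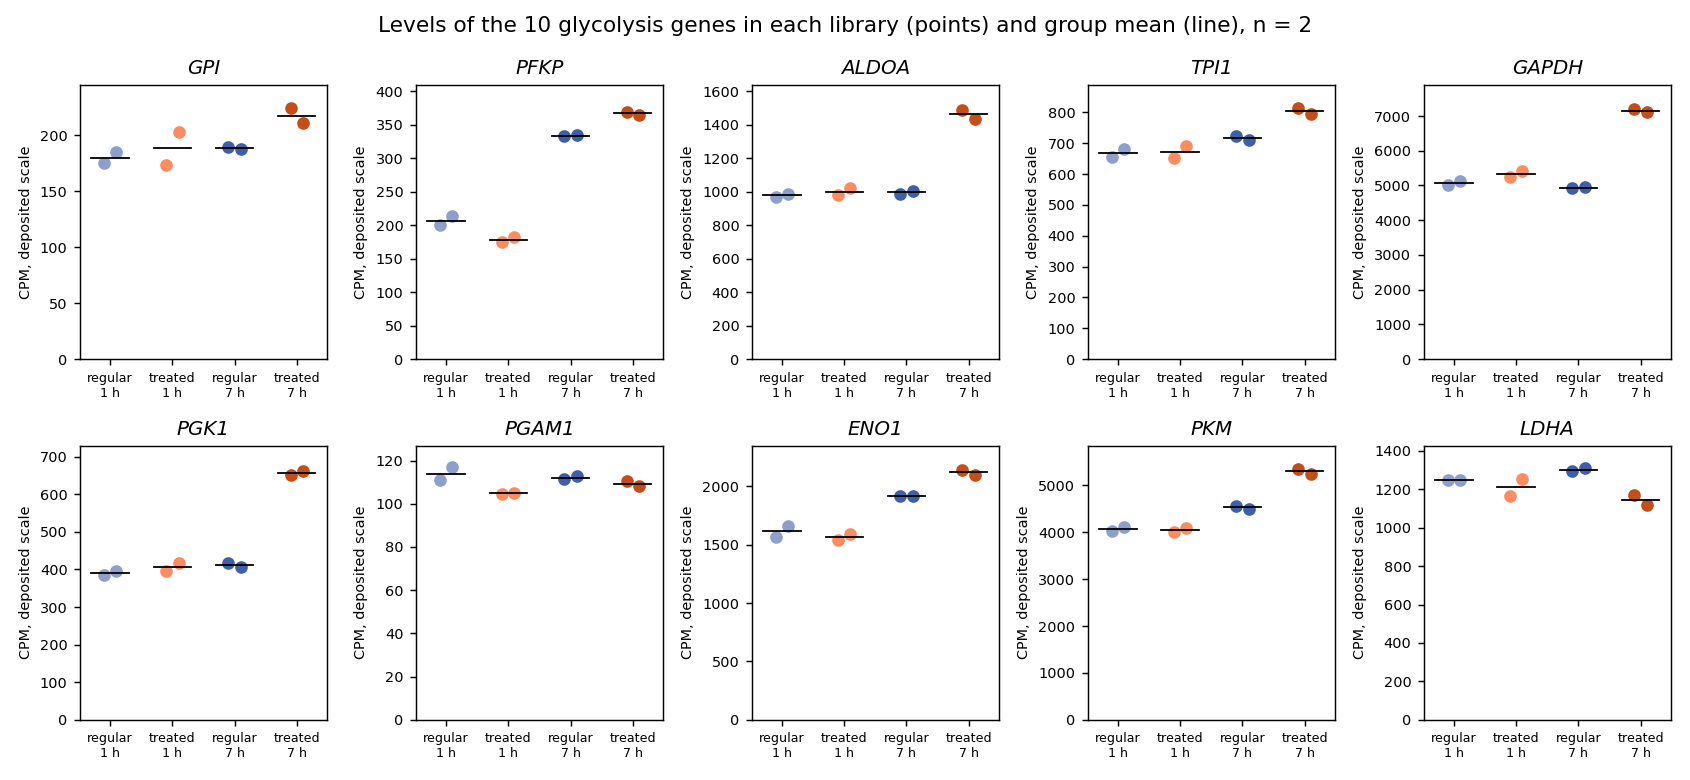
Level of each of the 10 glycolysis genes in CPM on the deposited scale (y axis, from 0) in the 4 groups (x axis); points are libraries and lines are group means (n = 2). PGK1, ALDOA and GAPDH stand higher in the treated 7 h libraries than in any other group, LDHA stands lower there than in the regular 7 h libraries, and PFKP is higher in both groups at 7 h than in both at 1 h.

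The first comparison asked what AF without glucose did to these transcripts after 1 h. Most of the 10 stayed close to their level in regular culture: none rose and 2 fell, PFKP and PGAM1, and the median log2 fold change of the 10 was -0.0017, beside 0.0072 over all tested genes. Fold changes, their standard errors (SE) and adjusted p-values here and below are from limma across all tested genes, with Benjamini-Hochberg adjustment and a threshold of 0.05. By the same test 17.7% of all tested genes were higher and 20.7% lower at 1 h. These counts depended on how the libraries were scaled. With each library scaled to its total reads 4 of the 10 were higher and 1 lower at 1 h, beside 30.2% and 14% of all tested genes. By quantiles the counts were 4 and 1, beside 23.7% and 17.3%, and with the total without heat shock genes and HMOX1 they were 6 and 1, beside 34.7% and 12.9%. Scaled to the median level of 16 common reference genes, GAPDH and PGK1 not among them, 8 were higher and 0 lower, beside 56.6% and 8.49%. Scaled to the median change of the same 16 genes, an alternative chosen after the data were seen, 2 were higher and 1 lower, beside 22.3% and 15.1%. At an unadjusted p under 0.05, 1 of the 10 was higher, GAPDH, and limma with voom weights called the same gene.

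PFKP, the platelet isoform of phosphofructokinase and the committed step of the pathway, stood at 199.6 and 213 CPM in the regular 1 h libraries and 175 and 181 in treated cells. Both treated libraries lay under both regular ones. PFKP fell by 0.21 on the log2 scale (SE 0.035, limma adjusted p = 6.79e-05), a change of -13.6%. It was also called lower when each library was scaled to its total reads (-0.14) and by quantiles (-0.11), but not when scaled to the median level of reference genes (-0.021, adjusted p = 0.593). PGAM1 (phosphoglycerate mutase) stood at 111 and 117 CPM in regular culture and 104 and 105 in treated cells, without overlap. It fell by 0.12 (SE 0.037, limma adjusted p = 0.0135), but the call did not hold without regular library B (-0.085, adjusted p = 0.14), treated library A (-0.12, adjusted p = 0.0647) or treated library B (-0.13, adjusted p = 0.0501), nor with the total (-0.052) or quantile scaling (-0.032).

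The other 8 genes did not pass the test at 1 h. GPI (glucose 6-phosphate isomerase) was at 175 and 185 CPM in regular culture and 174 and 203 in treated cells, the widest gap between libraries of a group for any of the 10, 0.23 on the log2 scale. Its log2 fold change of 0.061 (adjusted p = 0.385) turned into 0.17 without treated library A (adjusted p = 0.0072) and -0.052 without treated library B. GAPDH was at 5007 and 5124 CPM in regular culture and 5235 and 5411 in treated cells, so the groups did not overlap. Its log2 fold change was 0.072 (SE 0.030, limma adjusted p = 0.0677), and it passed the threshold without treated library A (0.095, adjusted p = 0.0421). PGK1 stood at 384 and 395 CPM and 397 and 416, also without overlap, with a log2 fold change of 0.061 (adjusted p = 0.142).

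Aldolase A, triose phosphate isomerase, enolase 1, pyruvate kinase M and lactate dehydrogenase A had overlapping groups at 1 h. ALDOA was at 970.4 and 985 CPM in regular culture and 978 and 1019 in treated cells, with a log2 fold change of 0.030. TPI1 was at 656 and 681 CPM and 652 and 691, with 0.0049. ENO1 was at 1566 and 1663 CPM and 1541 and 1589, with -0.045. These 3 differences were each smaller than the spread within a group. PKM, whose transcript encodes the M1 and M2 isoforms that a gene-level table cannot separate, was at 4035 and 4109.7 CPM and 3998 and 4101, with -0.0082. LDHA was at 1247 and 1248 CPM and 1167 and 1254, with -0.044.

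The second comparison asked the same at 7 h. On the deposited scale 8 of the 10 genes were higher in treated cells and 1, LDHA, was lower, while PGAM1 did not pass. Over all tested genes 40.5% were higher and 41.1% lower. The median log2 fold change of the 10 was 0.19, beside -0.0070 over all tested genes. PGK1, ALDOA and GAPDH rose by 59.4%, 46.8% and 44.8%, and the other 5 that rose did so by between 9.87% and 16.9%. Apart from that of PGK1, these rises depended on how the libraries were scaled: by quantiles ALDOA stood at 0.052 (limma adjusted p = 0.129) and GAPDH at -0.67, and the smaller shifts are described below.

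In the upper part of the pathway, ALDOA, which splits fructose 1,6-bisphosphate, was at 988 and 1003 CPM in the regular 7 h libraries and 1490.4 and 1434 in treated cells. The treated libraries stood well clear of the other 6. ALDOA rose by 0.55 on the log2 scale (SE 0.031, limma adjusted p = 1.97e-12). GPI, at the entry, was at 189.8 and 188 CPM and 224 and 211, a log2 fold change of 0.20 (SE 0.052, limma adjusted p = 0.00148). PFKP was at 333 and 334 CPM and 369 and 364, a log2 fold change of 0.14 (SE 0.035, limma adjusted p = 0.0014). TPI1, which interconverts the triose phosphates, was at 723 and 710.2 CPM and 815 and 797, a log2 fold change of 0.17 (SE 0.033, limma adjusted p = 9.38e-05). The groups did not overlap for any of these genes, and the rise of ALDOA was more than 2 times that of GPI, PFKP or TPI1 on the log2 scale.

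In the lower, ATP-yielding part, GAPDH, which makes NADH, was at 4932 and 4947 CPM in regular culture and 7197 and 7104 in treated cells. GAPDH rose by 0.53 (SE 0.030, limma adjusted p = 2.47e-12), a value of -0.67 with quantile scaling. PGK1, which makes the first ATP of this part, was at 416 and 407 CPM and 651 and 661 and rose by 0.67 (SE 0.032, limma adjusted p = 1.47e-13). PGK1 had the largest fold change of the 10. Among all tested genes it stood at the 82.3rd percentile of fold changes, ALDOA at the 78.4th and GAPDH at the 77.5th, places that scaling a library by 1 factor does not move.

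The next enzymes moved less. PGAM1 was at 111 and 113 CPM and 110.5 and 108, a log2 fold change of -0.037 (SE 0.037, limma adjusted p = 0.358). ENO1, which makes phosphoenolpyruvate, was at 1919.6 and 1914 CPM and 2145 and 2096, a log2 fold change of 0.15 (SE 0.032, limma adjusted p = 3.67e-04). PKM, which makes pyruvate and the second ATP, was at 4568 and 4499 CPM and 5349 and 5255, a log2 fold change of 0.23 (SE 0.029, limma adjusted p = 8.00e-07). The neighbours PGK1 and PGAM1, which act on successive intermediates, thus had the highest and lowest log2 fold changes from GAPDH to PKM, 0.67 and -0.037.

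LDHA, at the exit to lactate, was the gene of the 10 that fell on the deposited scale, though it stood at 0.41 when scaled to the median level of reference genes and at -0.28 when scaled to their median change. It was at 1293 and 1312 CPM in the regular 7 h libraries and 1169 and 1120.3 in treated cells, with no overlap. LDHA fell by 0.19 on the log2 scale (SE 0.034, limma adjusted p = 4.84e-05), a change of -12.1%, at the 40.3rd percentile of all tested genes. By rank within a library, LDHA went from place 50 and 48 in the regular 7 h libraries to 100 and 103 in treated cells. PGK1 went the other way, from place 324 and 338 to 219 and 208. GAPDH went from place 5 in both to 12 in both, and PKM from 7 in both to 18 and 17, although the CPM of both genes rose.

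**Figure D2:**
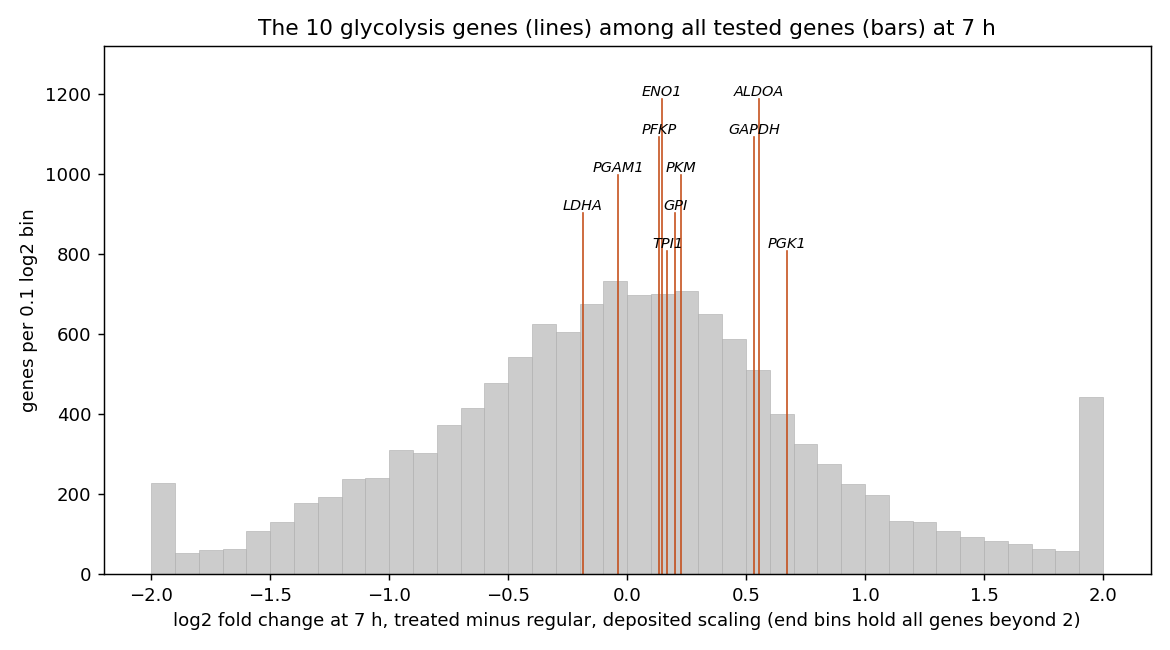
Number of tested genes (y axis) per 0.1 bin of the log2 fold change at 7 h on the deposited scale (x axis), with a labelled line for each of the 10 glycolysis genes; line heights only separate the labels. PGK1, ALDOA and GAPDH lie between 0.53 and 0.67, LDHA at -0.19, and the other 6 between -0.037 and 0.23.

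Since most of these shifts were small, they were set against other ways of scaling the libraries. Scaled to the total reads of the listed genes, 3 of the 10 were higher at 7 h, ALDOA at 0.24, GAPDH at 0.22 and PGK1 at 0.36, and the other 7 were lower, from -0.091 for PKM to -0.50 for LDHA; over all tested genes 24.1% were then higher and 58.2% lower, and their median moved to -0.32. With quantile normalization, which gives every library the same set of values in rank order, 1 of the 10 was higher, PGK1 at 0.41, and 7 were lower, among them GAPDH at -0.67, LDHA at -0.71 and PKM at -0.89; over all tested genes 39.1% were higher and 42% lower. GPI at 0.035 and ALDOA at 0.052 did not pass then. Scaled to the total without heat shock genes and HMOX1, 4 were higher and 2 lower, beside 32.1% and 49.8% of all tested genes. Scaled so that the median log2 level of the 16 reference genes was the same in every library, which moved the median of all tested genes to 0.58, 10 were higher, LDHA included at 0.41, beside 70.3% of all tested genes higher and 16.9% lower. Scaled instead to the median change of the same 16 genes, 5 were higher, PGK1 (0.57), ALDOA (0.46), GAPDH (0.44), PKM (0.13) and TPI1 (0.071), and 2 were lower, LDHA (-0.28) and PGAM1 (-0.14), beside 34.7% and 46.2% of all tested genes. The pair of scalings on the same reference genes thus gave LDHA opposite signs. With median-of-ratios scaling the calls and directions of the 10 at 7 h were those of the deposited scale, with PGK1 at 0.69 and LDHA at -0.17. Over all tested genes 41.7% were then higher and 40.0% lower. PGK1 thus rose under each of these scalings, and LDHA fell under each except that to the median level of reference genes. ALDOA kept its sign but not its call, and GAPDH was called higher under each except quantiles. The direction of GPI, PFKP, TPI1, PGAM1, ENO1 and PKM changed with at least 1 of the scalings that use 1 factor per library.

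**Figure D3:**
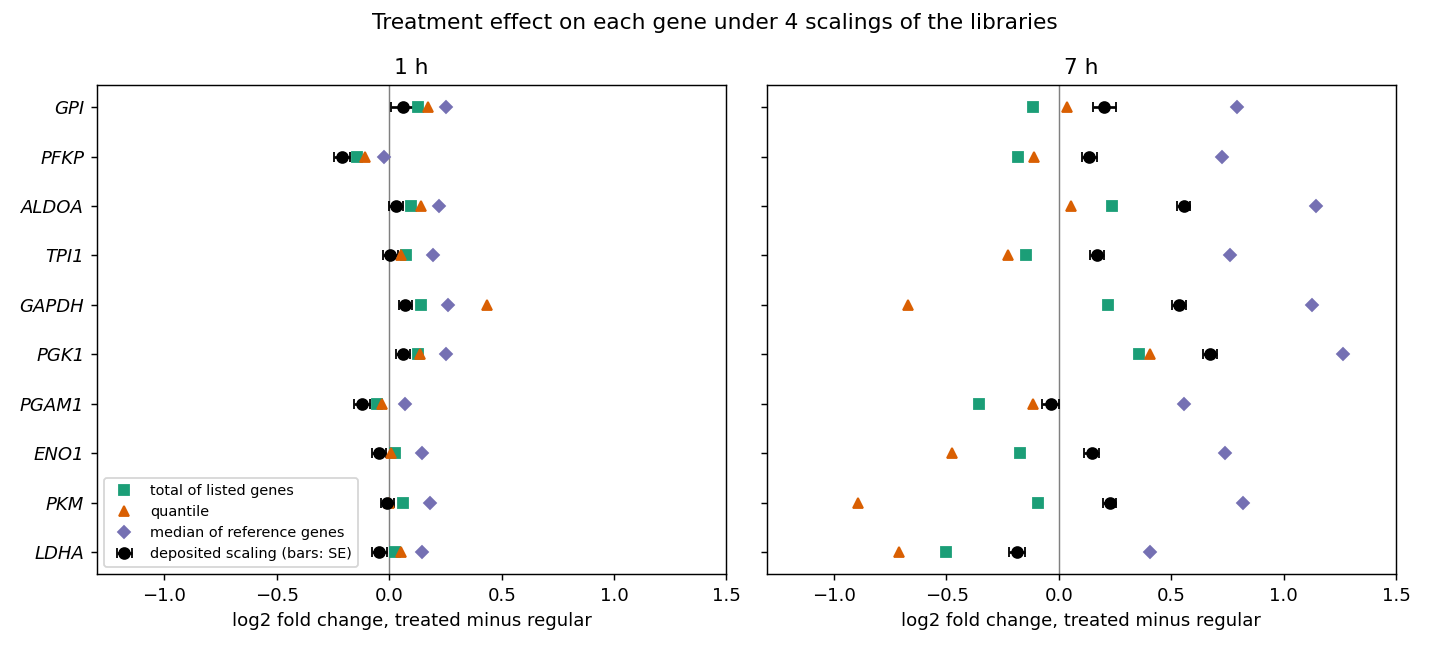
Log2 fold change of treated against regular culture (x axis) for each gene at 1 h (left) and 7 h (right); circles are the deposited scale with the SE of the fit, and the other marks are the same comparison after scaling to total reads, by quantiles, or to the median level of reference genes. At 7 h PGK1 lies right of 0 under each of the 4 scalings, while GAPDH spans -0.67 to 1.13.

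The share of all listed reads that fell on the 10 genes is the total scaling in another form, and it moves with the reads that other genes take, those of the heat shock genes and HMOX1 included. It was 1.49% and 1.53% in the regular 1 h libraries, 1.57% and 1.63% in the treated 1 h libraries, 1.62% and 1.62% in the regular 7 h libraries, and 1.64% and 1.62% in the treated 7 h libraries. At 7 h the share of the 10 together thus overlapped between treated and regular cells, although their summed level on the deposited scale went from 15475 and 15428 to 19521 and 19150.3 CPM. GAPDH alone took 0.516% and 0.520% of reads in the regular 7 h libraries and 0.603% and 0.601% in treated cells.

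Ratios between genes of the same library do not depend on a factor that scales the whole library. The reads of PGK1 per read of LDHA were 0.322 and 0.310 in the regular 7 h libraries and 0.557 and 0.590 in treated cells, against 0.308 and 0.316 in regular culture and 0.340 and 0.332 in the treated 1 h libraries. PKM per LDHA went from 3.53 and 3.43 to 4.57 and 4.69 at 7 h. PGAM1 per PGK1 went from 0.268 and 0.277 to 0.170 and 0.163. These 3 ratios did not overlap between the groups at 7 h. The pairs were picked by hand and join genes whose fold changes at 7 h differ. Their lack of overlap thus restates those changes and is no separate test. GAPDH per ALDOA stayed within 4.83 and 5.35 across all 8 libraries, so this pair kept close to 1 ratio while both rose on the deposited scale.

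Set against the mean log2 level of the 10 in the same library, 3 genes stood higher in both treated libraries than in both regular ones at 7 h, and 7 lower. PGK1 stood higher by 0.43, ALDOA by 0.31 and GAPDH by 0.29. LDHA stood lower by 0.43 and PGAM1 by 0.28, while PFKP, ENO1, TPI1, GPI and PKM stood lower by between 0.016 and 0.11. Set against the same mean, 31.8% of all tested genes stood higher and 58.5% lower without overlap. At 1 h ALDOA, TPI1, GAPDH and PGK1 stood higher, by 0.025 to 0.092, PFKP (-0.19) and PGAM1 (-0.10) stood lower and 4 genes overlapped, beside 36.6% and 26.4% of all tested genes. Without PGK1 in the mean GPI stood at 0.0088, and without ALDOA, GAPDH or PGK1 in it PKM stood at 0.017 to 0.032, so the side on which these 2 genes fell was not stable.

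**Figure D4:**
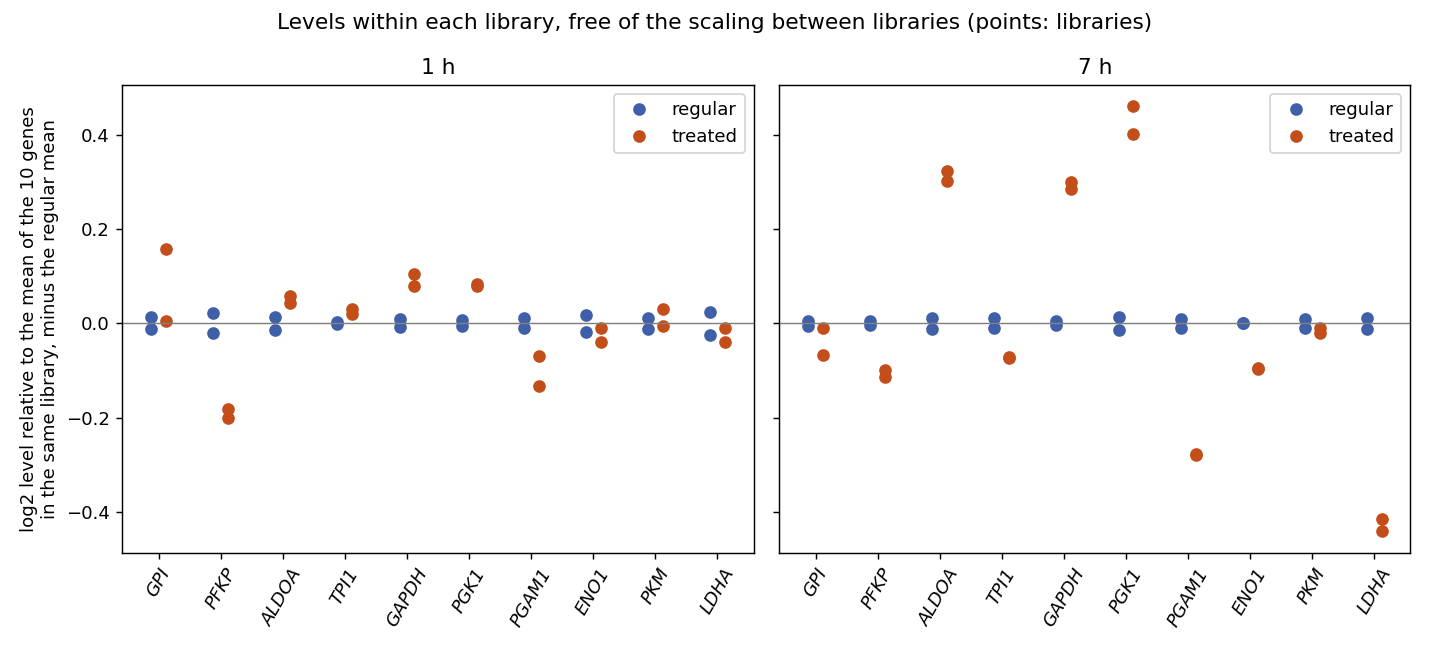
Log2 level of each gene relative to the mean of the 10 genes in the same library, minus the mean of regular culture at the same time (y axis), at 1 h (left) and 7 h (right); points are libraries. At 7 h both treated libraries of PGK1, ALDOA and GAPDH lie well above the regular ones, and those of LDHA and PGAM1 well below.

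The difference between the treatment effects at 7 h and at 1 h was tested as a term of the same fit. It was positive for 7 of the 10, beside 36.7% of all tested genes, and negative for LDHA, beside 37%. PGK1 had the largest difference, 0.61 (SE 0.045, limma adjusted p = 2.68e-10), followed by ALDOA at 0.52 and GAPDH at 0.46. By quantiles PGK1 stood at 0.27, ALDOA at -0.091 and GAPDH at -1.11, and with the total scaling GAPDH did not pass (0.077, adjusted p = 0.0662). PFKP, down at 1 h and up at 7 h on the deposited scale, had a difference of 0.35 (limma adjusted p = 3.09e-06), but -0.038 when scaled to the total and -0.0015 by quantiles. PKM had 0.23, ENO1 0.19 and TPI1 0.16, each of which became negative under the total and quantile scalings. LDHA had -0.14 (limma adjusted p = 0.0121), which was 0.26 when scaled to the median level of reference genes and -0.28 when scaled to their median change, and is a call that did not hold without treated library B of 1 h (-0.090, adjusted p = 0.0884) or treated library B of 7 h (-0.11, adjusted p = 0.0626). GPI (0.14, adjusted p = 0.0912) and PGAM1 (0.084, adjusted p = 0.151) did not pass, though GPI did without treated library B of 1 h (0.25, adjusted p = 0.0010) or treated library B of 7 h (0.19, adjusted p = 0.0448).

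Time in regular culture moved some of the same genes. Between 1 h and 7 h of regular culture 5 of the 10 rose and none fell, beside 30.7% and 30.8% of all tested genes. None of the 10 was lower at an unadjusted p under 0.05 either, or by limma with voom weights. PFKP rose by 0.69 (SE 0.035, limma adjusted p = 1.82e-12), or 61.8%, the 96.0th percentile of all tested genes, beside 0.67 for the treatment effect on PGK1 at 7 h. ENO1 rose by 0.25 and PKM by 0.15. TPI1 (0.10) and PGK1 (0.080) passed as well, but TPI1 not without regular library A of 1 h (0.072, adjusted p = 0.125) or of 7 h (0.087, adjusted p = 0.0965), and PGK1 not without regular library A of 1 h (0.060, adjusted p = 0.193) or of 7 h (0.064, adjusted p = 0.208) or regular library B of 7 h (0.095, adjusted p = 0.0618). Relative to the mean of the 10, PFKP stood higher by 0.56 and ENO1 by 0.11, 7 genes stood lower and PKM overlapped, beside 24.9% and 57.1% of all tested genes. The reads of PFKP per read of GPI, its neighbour in the pathway, were 1.14 and 1.15 in the regular 1 h libraries and 1.754 and 1.777 at 7 h. The regular 7 h group was thus itself shifted for PFKP, and its comparison with treated cells at 7 h starts from that level.

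The 10 genes did not follow a single profile. By the root mean square distance between centred log2 profiles over the 8 libraries, the closest pairs were GPI with TPI1 (0.050), ENO1 with PKM (0.050) and ALDOA with GAPDH (0.050), whereas PFKP lay 0.27 from its nearest neighbour, ENO1. LDHA was nearest to PGAM1 (0.068) and PGK1 to ALDOA (0.069). PKM lay nearest to the mean profile of the 10, at 0.014. Among 4480 genes with a mean of at least 50 CPM, the genes nearest to that mean profile were ZDHHC18 (0.024), FXYD5 (0.026), SLC25A5 (0.028), NCKAP1 (0.028) and EIF4H (0.029), and 660 were nearer to it than the median of the 10 themselves. The libraries, their depth and their scaling are shared by all these profiles.

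Other isoforms of the same steps are separate genes and were measured beside the 10. For this list and the next ones, the shares of all tested genes were 17.7% higher and 20.7% lower at 1 h. With the total scaling the shares at 1 h were 30.2% and 14%, and by quantiles 23.7% and 17.3%. At 7 h they were 40.5% and 41.1%, or 24.1% and 58.2% with the total scaling. Of 13 listed glycolytic enzymes and isoforms that were tested, 3 were higher and 3 lower at 1 h (5 and 1 with the total scaling). At 7 h 6 were higher and 3 lower, with a median of 0.17, and the split with the total scaling was 3 and 5. ENO2, the neuronal enolase, went from 36.1 ± 0.632 to 66.5 ± 0.918 CPM at 7 h (SD, n = 2) and rose by 0.88, more than ENO1. PFKM, the muscle phosphofructokinase, rose by 0.55 and ADPGK, an ADP-dependent glucokinase, fell by 0.28, as did PGAM2 by 0.33. Named after their values were seen, LDHB, which encodes the heart-type subunit of lactate dehydrogenase, was at 391 and 399 CPM in regular culture and 556 and 542 in the treated 7 h libraries. LDHB rose by 0.47 (SE 0.032, limma adjusted p = 5.19e-11) where LDHA fell, and it stood at 0.16 with the total and 0.22 with the quantile scaling. PFKL, the liver phosphofructokinase, rose by 0.30 (-0.019 with the total scaling), and the sperm-specific GAPDHS fell by 1.51, from 3.12 to 1.07 CPM. HK2, a hexokinase, fell by 0.29 at 1 h and rose by 0.17 at 7 h (-0.14 with the total scaling). At 1 h ENO2 (0.12) and BPGM (0.18), which makes 2,3-bisphosphoglycerate, rose and PGAM2 (-0.29) fell.

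Genes that feed and leave the pathway moved in both directions. Of 15 transporters of glucose and lactate and PFKFB genes, 1 was higher and 7 lower at 1 h, or 3 and 5 with the total scaling. At 7 h 7 were higher and 6 lower, or 4 and 7 with the total scaling. SLC2A3, the glucose transporter GLUT3, rose by 0.92 at 1 h and by 3.08 at 7 h, from 10.5 ± 0.331 to 89.1 ± 0.332 CPM. Its level in regular culture at 1 h was 24.2 CPM, so the regular 7 h group was itself lower. PFKFB3, which makes the activator of phosphofructokinase, stood 0.78 above regular culture at 7 h, at 207 beside 120 CPM. Both 7 h levels lay under those at 1 h, 321 CPM in regular culture and 241 in treated cells. TIGAR, which degrades that activator, fell by 0.53 at 1 h and 0.69 at 7 h. PFKFB4 fell by 0.65 at 1 h, and the lactate and pyruvate transporter SLC16A7 fell by 0.84 at 7 h. Of 14 genes of pyruvate entry into mitochondria, 2 were higher and 4 lower at 1 h, or 2 and 1 with the total scaling. At 7 h 4 were higher and 5 lower, or 2 and 11 with the total scaling. PDK4, a kinase that inhibits pyruvate dehydrogenase, rose by 0.78 at 1 h and 3.04 at 7 h. PC (pyruvate carboxylase) rose by 0.21 and the phosphatase PDP1 fell by 0.85 at 1 h, and the pyruvate carrier MPC2 fell by 0.17 at 1 h and rose by 0.47 at 7 h. DLAT, a pyruvate dehydrogenase subunit, and the phosphatase PDP2 fell by 0.41 and 0.37 at 7 h.

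Genes of side pathways were counted as well. Of 19 genes of branches off glycolysis, 9 were higher and 2 lower at 1 h (10 and 2 with the total scaling). At 7 h 13 were higher and 6 lower (12 and 6 with the total scaling), with a median of 0.78. The serine synthesis genes PSAT1 and PHGDH rose by 0.46 and 0.27 at 1 h, and PSAT1 by 2.30 at 7 h. PGD, of the pentose phosphate pathway, rose by 1.81 at 7 h, whereas RPIA of the same pathway fell by 0.71 and GPD1L, a glycerol 3-phosphate dehydrogenase, by 0.99. The hexosamine genes GFPT2 and UAP1 fell by 1.12 and 0.88 at 1 h. Of 12 glycogen genes, 4 were higher and 0 lower at 1 h (7 and 0 with the total scaling). At 7 h 6 were higher and 3 lower (3 and 8 with the total scaling). The branching enzyme GBE1 rose by 1.39 and the phosphorylase PYGL by 0.54 at 7 h, and the kinase subunit PHKA1 and UGP2, which makes UDP-glucose, fell by 0.36 and 0.34. At 1 h GYG1 (0.15) and PYGL (0.13) rose. Of 2 gluconeogenic genes tested, PCK2, the mitochondrial phosphoenolpyruvate carboxykinase, rose by 0.67 at 1 h and 1.06 at 7 h, and G6PC3 rose by 0.20 at 7 h, a value of -0.12 with the total scaling.

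The regulators and other targets tied to the HIF core and E-box letters were counted in the same way. Of 10 HIF and MYC regulators, none was higher and 3 lower at 1 h on the deposited scale. That count depended on scaling: 6 were higher and 3 lower at 1 h with the total scaling, and 3 and 3 by quantiles. At 7 h 3 were higher and 7 lower (2 and 7 with the total scaling). MYC fell by 1.48 at 1 h and rose by 2.19 at 7 h, when regular culture stood at 30.0 CPM, beside 169 at 1 h. EPAS1, which encodes HIF2A, rose by 1.29 at 7 h, while the HIF prolyl hydroxylase EGLN1 fell by 0.56 at 1 h and 0.88 at 7 h, and MLXIP, a glucose-sensing transcription factor, fell by 0.80 at 7 h. Of 15 other hypoxia targets, 7 were higher and 4 lower at 1 h (10 and 4 with the total scaling). At 7 h 13 were higher and 1 lower (11 and 2 with the total scaling), with a median of 1.29 beside 0.19 for the 10 glycolysis genes. Over all tested genes 40.5% were higher and 41.1% lower at 7 h. From 1 h to 7 h of regular culture alone, 5 of the 15 were higher and 10 lower, with a median of -0.23. DDIT4, an inhibitor of mTORC1, rose by 4.51 at 1 h and 2.72 at 7 h, and NDRG1 rose by 2.42 at 7 h. HILPDA, a lipid droplet protein, fell by 3.30 at 7 h. At 1 h MXI1 rose by 0.61, and KDM3A and ADM fell by 0.40 and 0.32.

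GAPDH and PGK1 are used to normalise RT-qPCR, and 14 other such genes were counted beside them. At 7 h 8 of these 14 were higher and 5 lower on the deposited scale, with a median of 0.15, and 3 were higher and 7 lower with the total scaling. At 1 h 2 were higher and 4 lower, or 4 and 3 with the total scaling. PGK1 (0.67) and GAPDH (0.53) had larger values at 7 h than each of the 14 on the deposited scale, though GAPDH and RPLP0 (0.50) lay close together and GAPDH stood at -0.67 by quantiles. ACTB, the actin gene, fell by 1.23 at 7 h and by 0.72 at 1 h. TFRC, POLR2A, IPO8 and SDHA fell at 7 h by between 0.37 and 0.80. The ribosomal genes RPLP0 (0.50) and RPL13A (0.42), GUSB (0.42), EEF1A1 (0.37), HPRT1 (0.36), TBP (0.19), PPIA (0.10) and YWHAZ (0.077) were called higher at 7 h, of which TBP, PPIA and YWHAZ turned negative with the total scaling and PPIA, YWHAZ and EEF1A1 by quantiles. B2M was at 0.42 (adjusted p = 0.064) with libraries of regular culture at 1 h that stood at 70.0 and 159 CPM.

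**Figure D5:**
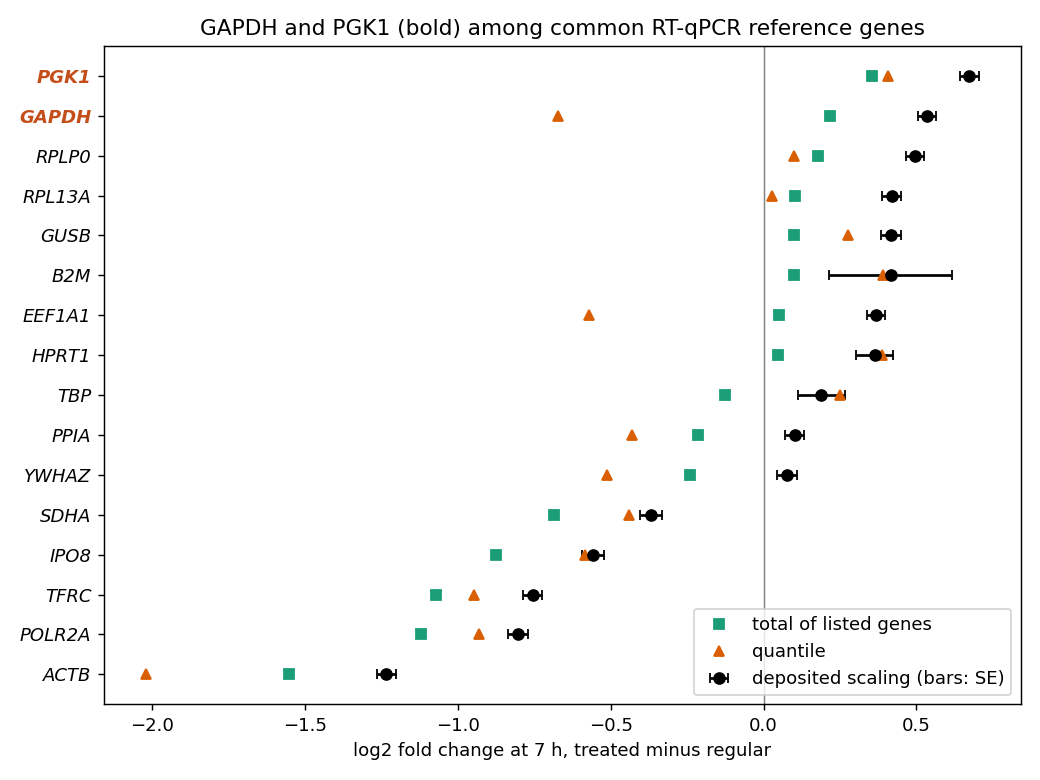
Log2 fold change at 7 h (x axis) of GAPDH and PGK1 (bold) and 14 other common RT-qPCR reference genes (y axis, ordered by the deposited scale); circles carry the SE of the fit, squares are scaled to total reads and triangles by quantiles. Values run from -1.23 for ACTB to 0.67 for PGK1 on the deposited scale, with GAPDH at 0.53.

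Reads from near-identical copies could be split between genes in counting that the sources used here do not describe. RefSeq names 65 pseudogenes of GAPDH, 13 of PGAM1, 6 of LDHA, 5 of PKM, 4 each of TPI1 and ENO1 and 2 each of ALDOA and PGK1, and none by this naming of GPI and PFKP. Of these the table lists TPI1P2, at 2.28 to 4.14 CPM, beside 652 to 815 CPM for TPI1. The libraries do not mark strand, and exons of SPSB2 (mean 8.46 CPM) overlap TPI1 and those of ATP7A (mean 30 CPM) overlap PGK1, so reads there cannot be told apart.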

How the data were processed

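Messenger RNA of LN229-TAZ(4SA) cells was sequenced in 8 libraries, 2 per group, prepared with SMART-Seq mRNA HT and Nextera XT kits, per the labels' protocols. Per the submitters' processing notes, reads were aligned with HISAT2 to GRCh38 and edgeR was used. Their versions, how reads were counted and how the listed genes were selected: not given in the sources used here. Values in the table, as deposited, are log2 CPM with a prior, which the authors computed per library. From the lowest values and steps the prior was 0.0522 CPM, and 100% of values then lay within 0.1 read of a whole read. CPM without the prior are printed; 1 read was worth 0.0209 to 0.0430 CPM, and 3 reads 0.0626 to 0.129 CPM, the upper limit for a gene without reads.

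Genes with at least 1 CPM in 2 libraries were kept, which removed 8 of 13036. The log2 values were fitted with limma 3.58.1 (R 4.3.3), with 1 mean per group, 4 residual degrees of freedom and an intensity trend, and 4 contrasts were adjusted by Benjamini-Hochberg over 13028 genes. A planned pseudocount was not added because the values were already logs. The fit was tested on simulated data with known fold changes. Alternatives were other scalings and other settings of the fit. The scalings were total, quantile, median of ratios, total without the 63 symbols (HSP or DNAJ prefix, or HMOX1), median level of reference genes and their median change. That last scaling was chosen after the data were seen. The settings were no filter, a minimum of 10 CPM, a prior of 1 CPM, no trend, voom weights, the libraries of the comparison alone, and each library left out. Replicate pairs differed by more than sampling noise (chi-square per degree of freedom 2.79 to 3.62). All 10 genes are named whatever their result; from each other list the 2 largest rises and falls at each time are named, with groups that do not overlap and at least 5 CPM, and any reference gene. A few genes of these lists are not reported here and are left out of their lists' counts. The members and lists were chosen with earlier results of these data known.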

Additional observations from a re-analysis of the deposited data

Results flagged for a closer look

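For the genes below the treatment effect at 7 h differed from that at 1 h by the test of the difference itself, a term of the limma fit with an adjusted p under 0.05. Over all tested genes 73.7% passed this test, so passing it does not set the genes below apart. Each number is the log2 effect at 7 h minus that at 1 h on the deposited scale.

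Of the 10 glycolysis genes 8 met this, beside 73.7% of all tested genes. They were PGK1 (0.61), ALDOA (0.52), GAPDH (0.46), PFKP (0.35), PKM (0.23), ENO1 (0.19), TPI1 (0.16) and LDHA (-0.14). PGK1 and ALDOA keep the lead here, and LDHA is the gene with the opposite sign. PGK1 stays positive at 0.23 with the total and 0.27 with the quantile scaling, and LDHA stays negative at -0.53 and -0.77. LDHA stood at 0.26 when scaled to the median level of reference genes, and its call did not hold without treated library B of 1 h or of 7 h.

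Among isoforms of the same steps the differences were ENO2 (0.76), HK2 (0.46), PFKM (0.43), LDHB (0.43), PFKL (0.26), ADPGK (-0.14) and GAPDHS (-1.72). With the total scaling ENO2 stood at 0.38, HK2 at 0.079, PFKM at 0.049, LDHB at 0.046, PFKL at -0.12 and GAPDHS at -2.10. LDHB and LDHA thus differed in sign on the deposited scale, though LDHB stood at only 0.046 with the total and 0.085 with the quantile scaling.

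Genes of transport and PFKFB control gave SLC2A3 (2.16), PFKFB3 (1.20), PFKFB4 (0.87) and SLC16A7 (-0.58). Genes of pyruvate entry gave PDK4 (2.27), MPC2 (0.64), PDP1 (0.62), PC (0.15), DLAT (-0.30) and PDP2 (-0.32). Glycogen genes gave GBE1 (1.44), PYGL (0.40), UGP2 (-0.43), PHKA1 (-0.28) and GYG1 (-0.21), and the gluconeogenic genes PCK2 (0.38) and G6PC3 (0.16).

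Branches off glycolysis gave GFPT2 (1.93), PSAT1 (1.84), PGD (1.62), PHGDH (1.41), UAP1 (0.18), GPD1L (-1.09) and RPIA (-0.53). The regulators gave MYC (3.66), EPAS1 (1.20), MLXIP (-0.90) and EGLN1 (-0.32), and the other hypoxia targets NDRG1 (2.19), ADM (1.61), KDM3A (1.39), MXI1 (0.86), DDIT4 (-1.79) and HILPDA (-3.85). MYC has the largest positive difference among these lists, from a fall at 1 h to a rise at 7 h.

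Among the reference genes the differences were B2M (1.06), HPRT1 (0.42), GUSB (0.38), EEF1A1 (0.38), RPLP0 (0.38), RPL13A (0.31), YWHAZ (0.15), PPIA (0.14), SDHA (-0.25), TFRC (-0.46), IPO8 (-0.51), ACTB (-0.51) and POLR2A (-0.72). That of B2M rests on regular library B of 1 h, which stood at 159 CPM beside 70.0 in library A. The treatment checks gave HMOX1 (3.57) and TXNRD1 (2.77).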

How the results depend on the processing

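No paired analysis was possible because the table's columns carry group names and no replicate numbers. Scaling, the intensity trend and single libraries each moved results; the shares of all tested genes under each scaling at 1 h and 7 h stand beside the counts above. At 1 h the 10 genes were 4 higher and 1 lower with the total scaling, 4 and 1 with quantiles, 6 and 1 with the total without heat shock genes and HMOX1, 8 and 0 with the median level of reference genes, and 2 and 1 with their median change, which was chosen after the data were seen; voom weights gave 1 higher, and no intensity trend 1 lower. All tested genes called at 1 h were 8477 with the level of reference genes, against 4997. At 7 h the 10 genes were 3 and 7, 1 and 7, 4 and 2, 10 and 0, and 5 and 2 in the same order of scalings. Median-of-ratios scaling left the calls of the 10 genes at 1 h, at 7 h and for the difference between times as on the deposited scale. For the difference between times the counts were 2 and 6 with the total (19.3% and 58.2% of all tested genes), 1 and 5 with quantiles (34.2% and 38.6%), 3 and 2 with the total without heat shock genes and HMOX1 (24.8% and 50.3%), 10 and 0 with the level of reference genes (58.5% and 19.9%), 5 and 1 with their change (28.9% and 43.5%), and 0 lower with no intensity trend. In regular culture over time 3 were higher and 2 lower with the level of reference genes (21.2% and 40.5%), 2 and 3 with their change (19.5% and 41.8%), and 3 higher with no intensity trend.

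Signs turned as follows. With the total scaling ENO1 (0.024), PKM (0.060) and LDHA (0.024) turned at 1 h, GPI (-0.11), PFKP (-0.18), TPI1 (-0.15), ENO1 (-0.17) and PKM (-0.091) at 7 h, and GPI (-0.24), PFKP (-0.038), TPI1 (-0.22), PGAM1 (-0.30), ENO1 (-0.20) and PKM (-0.15) for the difference between times. With quantiles ENO1 (0.0085) and LDHA (0.053) turned at 1 h, PFKP (-0.11), TPI1 (-0.23), GAPDH (-0.67), ENO1 (-0.48) and PKM (-0.89) at 7 h, GPI (-0.14), PFKP (-0.0015), ALDOA (-0.091), TPI1 (-0.28), GAPDH (-1.11), PGAM1 (-0.085), ENO1 (-0.48) and PKM (-0.89) for the difference, and GAPDH (0.076) and PGAM1 (0.019) in regular culture over time. With the total without heat shock genes and HMOX1 ENO1 (0.045), PKM (0.082) and LDHA (0.045) turned at 1 h, PFKP (-0.021) and ENO1 (-0.012) at 7 h, and GPI (-0.11), TPI1 (-0.082), PGAM1 (-0.16), ENO1 (-0.057) and PKM (-0.013) for the difference. With the level of reference genes PGAM1 (0.069), ENO1 (0.15), PKM (0.18) and LDHA (0.15) turned at 1 h, PGAM1 (0.55) and LDHA (0.41) at 7 h, LDHA (0.26) for the difference, and GPI (-0.020), ALDOA (-0.064), PGK1 (-0.010) and LDHA (-0.028) in regular culture over time. With their change PKM (0.032) turned at 1 h, PGAM1 (-0.055) for the difference, and GPI (-0.035), ALDOA (-0.079), TPI1 (-0.0051), PGK1 (-0.025) and LDHA (-0.043) in regular culture over time. The cause was not tested.

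Without PFKP in the mean of the 10, 4 genes stood lower at 1 h, and in regular culture over time 4 stood higher and 3 lower, TPI1 (0.024) and PGK1 (0.00401) having turned. Without PGK1 in it GPI (0.0088) and PKM (0.032) turned at 7 h, as did PKM without ALDOA (0.019) or GAPDH (0.017).

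With 1 library left out at a time, all tested genes called ranged from 3659 to 5284 at 1 h, 9973 to 10652 at 7 h, 9054 to 9436 for the difference and 6759 to 8268 in regular culture over time. The lone library left in a group is assumed to vary like the other groups. Of the 10 genes 0 to 2 were higher and 1 to 2 lower at 1 h, 8 higher and 1 lower in each case at 7 h, 7 to 8 higher and 0 to 1 lower for the difference, and 3 to 5 higher and 0 lower in regular culture. Signs turned for values not called: at 1 h GPI ranged from -0.052 to 0.17, TPI1 from -0.037 (also -0.023) to 0.047, PKM from -0.026 to 0.010 (also 0.0050) and LDHA from -0.096 to 0.0072, and in regular culture over time PGAM1 ranged from -0.060 to 0.012.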
